A study of Mus musculus with 12 samples.

Results

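The genes described here are 10 feedback inhibitors of ERK signalling, taken by name from the 26219 genes of a mouse expression table. They are the Sprouty genes Spry1, Spry2 and Spry4, the Sprouty-related genes Spred1 and Spred2, the phosphatase genes Dusp4, Dusp5 and Dusp6, and Il17rd and Phlda1. All 10 were found in the table, and all 10 passed the filter on low values. Their transcript levels were measured in 12 libraries from 6 cell lines, each cultured in duplicate (replicates 1 and 2). The lines GSC_1 and GSC_2 were germline stem cells (GSCs), spermatogonial stem cells kept in culture, derived independently from testes at postnatal day 7. The other 4 lines, GSCLC_1 to GSCLC_4, were cells resembling them (GSCLCs), made in vitro from pluripotent stem cells according to the series title and isolated from reconstituted testes. In condition 1 (GSCLC_1 and GSCLC_4) the reconstituted testes were kept at 34°C throughout for 3 weeks. In condition 2 (GSCLC_2 and GSCLC_3) they spent the first 2 weeks at 37°C and the last 1 week at 34°C. All 6 lines share the strain background C57BL/6 x 129/SvJcl, the AcrAct_EGFP reporter and 1 medium holding GDNF, bFGF, LIF and EGF. Each line is 1 derivation, and GSC and GSCLC lines differ in source as well as in kind, which cannot be told apart.

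FGF2, EGF and GDNF act on receptor tyrosine kinases that switch on RAS and then the kinases RAF, MEK and ERK. Active ERK induces genes whose products damp the same pathway. Sprouty and Spred proteins act at or above RAF, the dual-specificity phosphatases (DUSPs) take phosphate off ERK itself, and Il17rd, also called Sef, acts on FGF receptor signalling at membranes. Cultured spermatogonial stem cells depend on GDNF and FGF2, and transcripts of such feedback genes are widely used as a reading of pathway output.

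Levels are in RPM, reads scaled to a fixed library total, from sequencing of the 3′ ends of mRNA. They are not scaled to gene length, so a level is compared between libraries for 1 gene and not between genes. The even steps of the low values imply 3031770 to 4644318 counted reads per library, and between 20 and 1186 reads for a feedback gene in a library. Counting error alone is then 2.90% to 22.4% of a value. Log2 changes are of RPM + 1 with the SE of limma, and the threshold is an adjusted p of 0.05 over all 11788 genes tested. Lines were taken as the units of comparison, with the mean of the 2 culture replicates as a line's value. The summed RPM of 10 germ cell markers was 2971 to 3435 in GSC and 2994 to 3635 in GSCLC libraries, and each of the 10 was above 0 in both kinds.

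The DNA just before the start is shown for 3 of the 5 genes that passed in the comparison of GSCLC with GSC lines below. These are Spry2, which was higher in GSCLC lines, and Dusp5 and Il17rd, which were lower. The sequences are placed by RefSeq on GRCm38.p6 and end before the first annotated base of the gene. The set of promoter sequences used held 7 of the 10 genes and lacked Spry4, Dusp4 and Phlda1. Spry4 and Phlda1 also passed in that comparison and are for this reason not shown. Capitals mark GGAA or its complement TTCC, the core bound by ETS factors, and in Dusp5 also a joined pair of CArG boxes, the site bound by serum response factor (SRF). ETS factors and SRF are nuclear targets of ERK.
Spry2, minus strand, chr14:105896820-105897069: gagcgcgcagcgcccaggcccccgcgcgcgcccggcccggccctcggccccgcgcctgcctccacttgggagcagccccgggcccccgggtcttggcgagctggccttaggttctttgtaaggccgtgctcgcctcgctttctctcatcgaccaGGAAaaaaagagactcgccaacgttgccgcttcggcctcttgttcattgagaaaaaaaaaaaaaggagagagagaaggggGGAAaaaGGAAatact
Dusp5, plus strand, chr19:53528895-53529108: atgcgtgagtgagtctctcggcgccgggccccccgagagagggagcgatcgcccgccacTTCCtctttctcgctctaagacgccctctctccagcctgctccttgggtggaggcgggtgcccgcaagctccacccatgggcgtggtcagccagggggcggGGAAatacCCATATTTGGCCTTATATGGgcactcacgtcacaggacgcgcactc
Il17rd, plus strand, chr14:27038751-27038940: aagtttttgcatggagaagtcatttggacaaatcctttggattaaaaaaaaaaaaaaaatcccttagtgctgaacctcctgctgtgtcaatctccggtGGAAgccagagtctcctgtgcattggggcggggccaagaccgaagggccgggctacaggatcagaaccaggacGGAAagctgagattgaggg

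Within the 250 bases before the RefSeq start, on both strands, GGAA was found 3 times for Spry2, 3 times for Dusp5 and 4 times for Il17rd. For Dusp5 and Il17rd the windows reach past the stretches shown, up to the RefSeq start. The core is in 93.4% of 32851 mouse promoter windows of that length. The pair of CArG boxes of Dusp5 was the exception among the 7 genes, the other 6 having 0. A CArG box was found in 1.47% of all windows, and 6 windows of 32851 held 2 or more. The longer ETS forms CCGGAA and CCGGAAGT, which contain the core, the cyclic AMP element TGACGTCA and the AP-1 site TGACTCA were found in 0 of the 7 windows, against 12.03%, 2.88%, 1.55% and 4.46% of all windows. A match is a run of letters and no evidence of binding, and binding was not measured here.

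Between GSCLC and GSC lines, 5 of the 10 feedback genes passed the threshold, 1 higher and 4 lower in GSCLC lines. Over all genes tested 3.02% passed, 1.21% higher and 1.81% lower. Spry2 rose, while Spry4, Dusp5, Il17rd and Phlda1 fell. Spry1, Spred1, Spred2, Dusp4 and Dusp6 did not pass. The median log2 change of the 10 genes was -0.34, against -0.01 over all genes tested. The 10 genes were chosen with earlier results of these data known, so these contrasts with all genes are no test of the set. In 4 of the 10 genes (Spry2, Spry4, Il17rd and Phlda1) the 8 GSCLC libraries did not overlap the 4 GSC libraries, which was seen for 7.07% of all genes tested (3.22% higher, 3.85% lower).

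**Figure D1:**
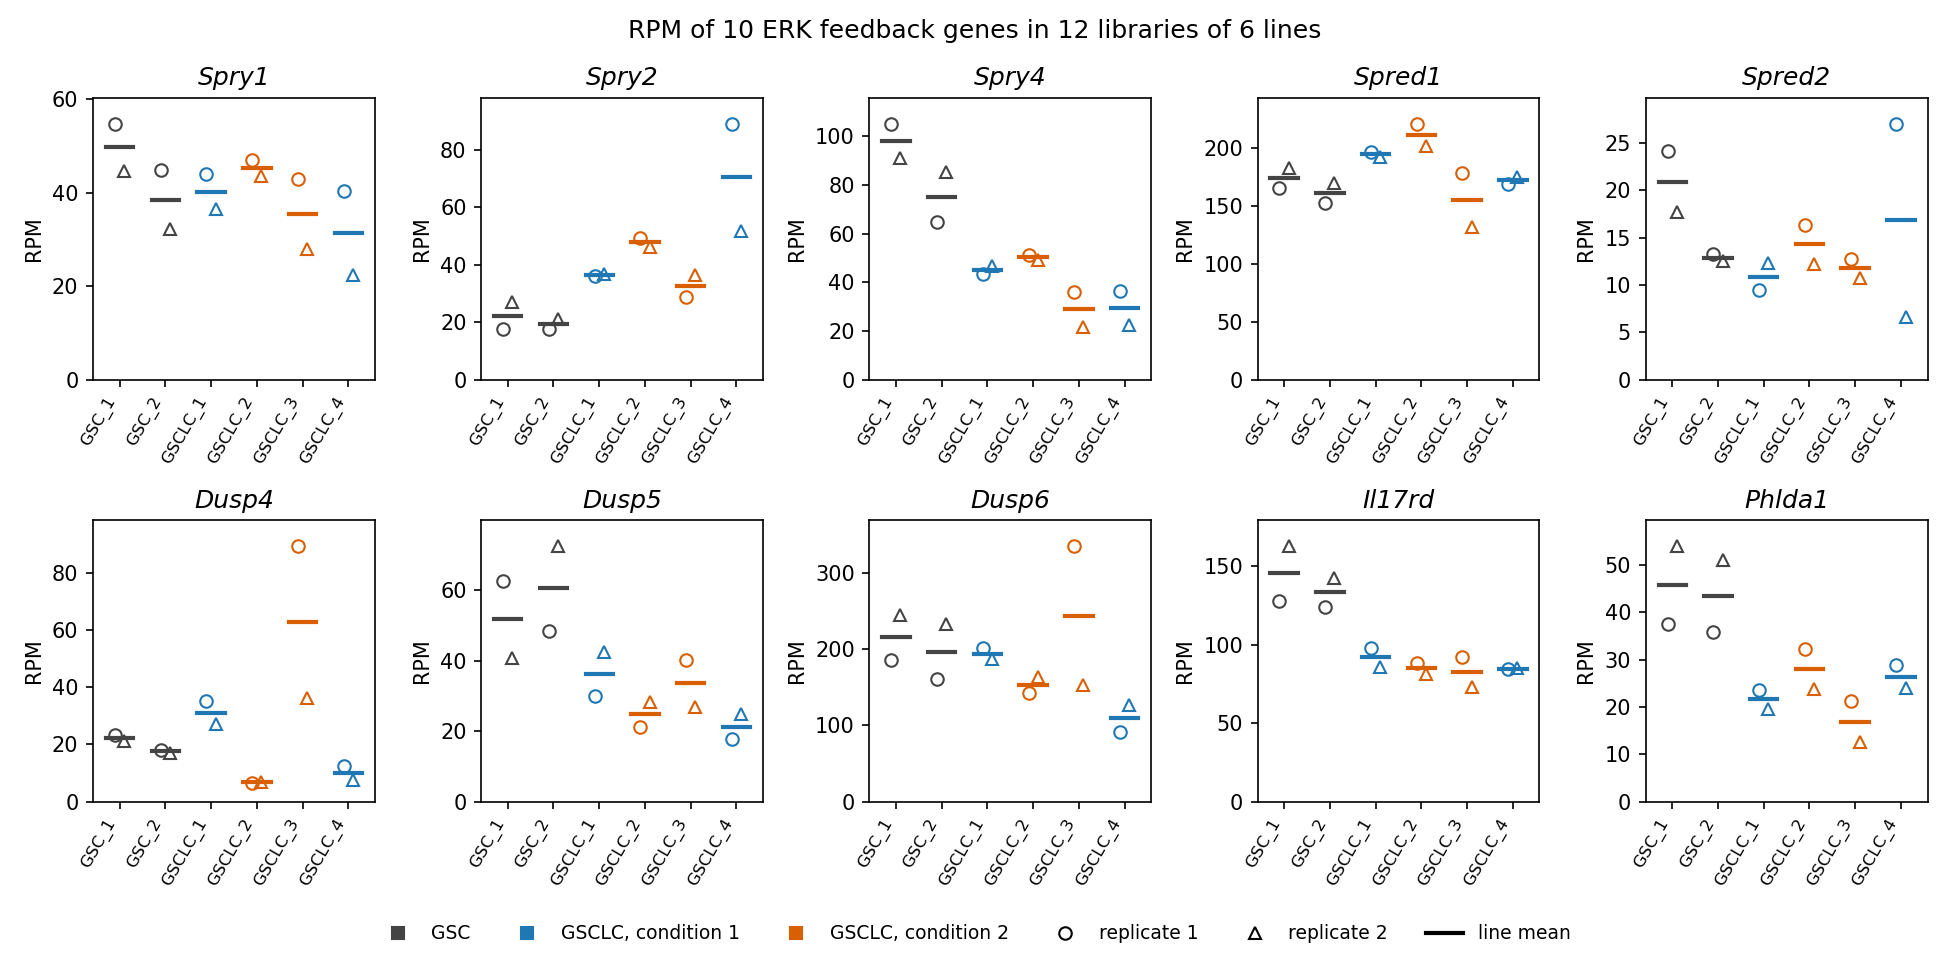
RPM (vertical axes, each from 0) of the 10 feedback genes in the 12 libraries, by line on the horizontal axes, with circles for replicate 1, triangles for replicate 2 and bars for line means. Spry4, Il17rd and Phlda1 are lower and Spry2 is higher in every GSCLC library than in any GSC library, while Dusp4 runs from 6.52 to 89.3 RPM among the GSCLC libraries.

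The Sprouty genes encode membrane-bound adaptors that limit RAS and RAF activation by growth factor receptors. Spry4 (identifier 24066, chromosome 18 at 38586247 to 38601415 on GRCm38) stood at 105 and 91.3 RPM in the replicates of GSC_1 and 64.7 and 85.2 RPM in those of GSC_2. In GSCLC lines it was 43.4 and 46.8 RPM in GSCLC_1, 51.4 and 49.3 RPM in GSCLC_2, 36.2 and 21.6 RPM in GSCLC_3, and 36.6 and 22.4 RPM in GSCLC_4. The highest GSCLC library thus lay below the lowest GSC library. The means over lines were 86.6 ± 16.5 RPM (SD, n = 2) and 38.5 ± 10.9 RPM (SD, n = 4), a log2 change of -1.19 ± 0.25 with adjusted p = 0.0252.

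Spry2 (24064, chromosome 14 at 105891947 to 105896819, minus strand) went the other way. The level was 17.6 and 26.9 RPM in GSC_1 and 17.7 and 21.2 RPM in GSC_2. Among GSCLC lines it was lowest in GSCLC_3, at 28.8 and 36.4 RPM, then 36.2 and 36.6 RPM in GSCLC_1, 49.4 and 46.2 RPM in GSCLC_2, and 89.2 and 51.8 RPM in GSCLC_4. All 8 GSCLC libraries were above all 4 GSC libraries, and GSCLC_4 was the highest line in both replicates. The GSC mean was 20.9 ± 1.99 RPM (SD, n = 2) and the GSCLC mean 46.8 ± 17.0 RPM (SD, n = 4), with a log2 change of 1.07 ± 0.26 and adjusted p = 0.0491, just under the threshold.

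Because Spry2 and Spry4 moved in opposite directions, their ratio separated the kinds of line widely. Spry2 over Spry4, in RPM, was 0.167 to 0.295 in the 4 GSC libraries and 0.783 to 2.44 in the 8 GSCLC libraries, with medians of 0.261 and 0.949. The 2 genes may be captured with different efficiency, so the ratio compares libraries and not the genes. It was highest in GSCLC_4, at 2.44 and 2.31, and 1.69 in replicate 2 of GSCLC_3. The sum of the 3 Sprouty genes overlapped between the kinds, running from 127 to 178 RPM in the former and from 86.0 to 166 RPM in the latter.

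**Figure D2:**
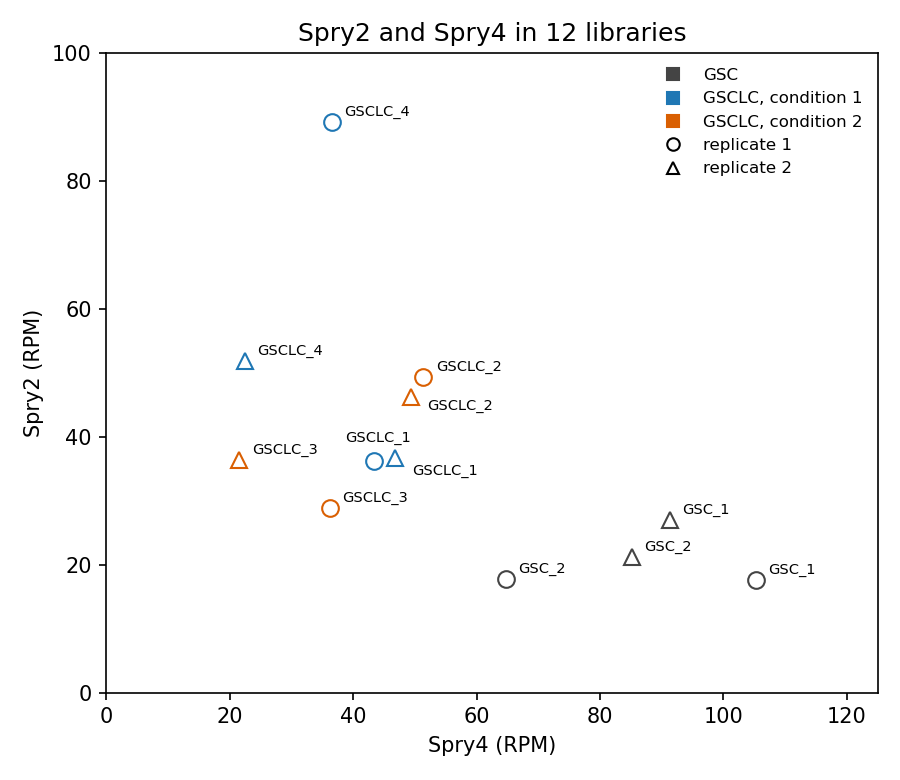
Spry2 (vertical axis, RPM) against Spry4 (horizontal axis, RPM) in the 12 libraries, coloured by kind of line and condition, with circles for replicate 1 and triangles for replicate 2. The 4 GSC libraries sit at the lower right, with Spry4 of at least 64.7 RPM and Spry2 of at most 26.9 RPM, and the 8 GSCLC libraries sit above and to the left of them.

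Spry1 (24063, chromosome 3 at 37639947 to 37644598), the third Sprouty gene of the set, was 54.8 and 44.6 RPM in GSC_1, 44.8 and 32.1 RPM in GSC_2, and between 22.4 and 46.9 RPM in the GSCLC libraries, with a median of 41.7 RPM. The kinds of line overlapped, and the log2 change was -0.22 ± 0.20 with adjusted p = 0.623. A transcript that awaits experimental support in the annotation, Gm43820, begins 9 bases past the end of Spry1 on the same strand.

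Il17rd (171463, chromosome 14 at 27038941 to 27107286) had the smallest p of the 10 genes in this comparison. It was 128 and 163 RPM in GSC_1 and 124 and 143 RPM in GSC_2. In GSCLC lines it was 98.2 and 85.8 RPM in GSCLC_1, 88.3 and 81.7 RPM in GSCLC_2, 92.4 and 73.0 RPM in GSCLC_3, and 84.4 and 85.1 RPM in GSCLC_4. The 4 GSCLC line means lay close together, from 82.7 to 92.0 RPM, well below the 133 and 146 RPM of the GSC lines. The log2 change was -0.69 ± 0.13 with adjusted p = 0.0154.

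Phlda1 (21664, chromosome 10 at 111506286 to 111508645), a gene with a pleckstrin homology-like domain that growth factors induce, was 37.5 and 54.0 RPM in GSC_1 and 35.9 and 51.0 RPM in GSC_2. It was 23.7 and 19.6 RPM in GSCLC_1, 32.3 and 23.7 RPM in GSCLC_2, 21.2 and 12.7 RPM in GSCLC_3, and 28.8 and 24.1 RPM in GSCLC_4. Replicate 2 was the higher library in both GSC lines and the lower in all 4 GSCLC lines. The means were 44.6 ± 1.61 RPM (SD, n = 2) and 23.3 ± 5.02 RPM (SD, n = 4), with a log2 change of -0.93 ± 0.22 and adjusted p = 0.0453. The change was -0.47 with replicate 1 libraries alone, an alternative chosen after the data were seen, and did not pass there (adjusted p = 0.435).

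The 3 phosphatase genes behaved differently from each other. Dusp5 (240672, chromosome 19 at 53529109 to 53542431), whose product is a nuclear phosphatase of ERK, was 62.6 and 40.7 RPM in GSC_1 and 48.5 and 72.5 RPM in GSC_2. It was 30.0 and 42.3 RPM in GSCLC_1, 21.3 and 28.2 RPM in GSCLC_2, 40.1 and 27.0 RPM in GSCLC_3, and 17.8 and 24.7 RPM in GSCLC_4. Line means did not overlap, but replicate 2 of GSCLC_1 lay above replicate 2 of GSC_1. The log2 change was -0.95 ± 0.22 with adjusted p = 0.0435.

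Dusp6 (67603, chromosome 10 at 99263231 to 99267489) encodes the cytoplasmic ERK phosphatase often used as a marker of FGF signalling. It was 186 and 245 RPM in GSC_1, 161 and 232 RPM in GSC_2, 201 and 187 RPM in GSCLC_1, 142 and 163 RPM in GSCLC_2, 335 and 153 RPM in GSCLC_3, and 91.4 and 127 RPM in GSCLC_4. GSCLC_4 was the lowest line and replicate 1 of GSCLC_3 the highest library, with the GSC lines between them. Its log2 change was -0.31 ± 0.23 with adjusted p = 0.547.

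Dusp4 (319520, chromosome 8 at 34807297 to 34819894), another nuclear phosphatase of ERK, was 23.1 and 21.1 RPM in GSC_1 and 18.2 and 17.1 RPM in GSC_2. It was 35.1 and 27.2 RPM in GSCLC_1, 6.52 and 7.04 RPM in GSCLC_2, 89.3 and 36.1 RPM in GSCLC_3, and 12.5 and 7.59 RPM in GSCLC_4. GSCLC_1 and GSCLC_3 were thus above both GSC lines, and GSCLC_2 and GSCLC_4 below them. The log2 change between the kinds was -0.07 ± 0.62 with adjusted p = 0.974, a mean over lines that lay on both sides.

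The Spred genes encode membrane proteins with a Sprouty-like domain that bring neurofibromin to RAS. Spred1 (114715, chromosome 2 at 117121374 to 117182279) was 152 to 183 RPM in GSC and 132 to 221 RPM in GSCLC libraries, with medians of 168 and 186 RPM and a log2 change of 0.12 ± 0.14 (adjusted p = 0.722). Spred2 (114716, chromosome 11 at 19924375 to 20024026) was 12.5 to 24.1 RPM in GSC and 6.60 to 27.1 RPM in GSCLC libraries, with a log2 change of -0.36 ± 0.25 (adjusted p = 0.502). Both extremes of Spred2 among GSCLC libraries came from GSCLC_4, at 27.1 RPM in replicate 1 and 6.60 RPM in replicate 2. Part of the last 300 bases of Spred2 also occurs in the transcript Gm14612, so its level is uncertain. For the other 9 genes no run of 40 bases of those ends was found in the transcript of another annotated gene. Spry1, Spry4, Dusp5 and Phlda1 are overlapped by genes on the opposite strand, none with an exon in those last 300 bases.

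The calls between the kinds of line rest on having both GSC lines: without GSC_1, or without GSC_2, 0 of the 10 passed (0.351% and 0.112% of all genes tested), with adjusted p of 0.213 to 0.320 and 0.154 to 0.437 for the 5 genes and no change of direction among them. Without the filter on low values 1 of the 10 passed (0.708% of all genes), and without limma's mean-variance trend 0 (2.05%). With 1 library left out, 2 to 5 of the 10 passed, and 1.7% to 3.43% of all genes. Il17rd passed in 12 of these 12 fits and Spry4 in 11, with adjusted p = 0.0526 without GSCLC_3 replicate 1. Phlda1 passed in 6, failing without replicate 2 of GSC_1, GSC_2, GSCLC_1, GSCLC_2 or GSCLC_4 or replicate 1 of GSCLC_3 (adjusted p of 0.0580 to 0.0971). Dusp5 passed in 5, failing without replicate 1 of GSC_1, GSCLC_1 or GSCLC_2 or replicate 2 of GSC_2, GSCLC_2, GSCLC_3 or GSCLC_4 (adjusted p of 0.0516 to 0.110). Spry2 passed in 4, failing without replicate 1 of GSC_1, GSC_2, GSCLC_1 or GSCLC_2 or replicate 2 of any GSCLC line (adjusted p of 0.0508 to 0.123).

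Markers of other cells also differed between the libraries. The summed RPM of 18 fibroblast markers was 572 to 1252 in GSC and 478 to 846 in GSCLC libraries, with 0 of the 18 at 0 throughout. In GSC_1 that sum was 652 and 572 RPM, inside the GSCLC range. Sums were 35.2 to 142 and 22.1 to 53.1 RPM for 10 Sertoli cell markers, with Amh at 0 in every library and Gata1 and Fshr at 0 in GSC libraries. For 10 Leydig and peritubular markers they were 37.0 to 136 and 16.0 to 53.2 RPM, with Cyp17a1 and Lhcgr at 0 throughout and Hsd3b1 at 0 in GSCLC libraries. For the 9 measured macrophage and endothelium markers they were 26.1 to 35.5 and 9.43 to 21.2 RPM, with Tyrobp at 0 in GSCLC libraries. In GSC_1 these last sums, 26.08 and 27.35 RPM, were above every GSCLC library. Replicates 1 and 2 of GSC_1 had Sertoli sums of 93.22 and 35.53 RPM and Leydig and peritubular sums of 94.85 and 38.54 RPM. In GSC_2 they were 142.3 and 35.21 RPM, and 135.9 and 37 RPM. Replicate 1 of each GSC line was thus above the GSCLC range in both lists, and replicate 2 inside it. In replicate 1 of GSC_1 and GSC_2 these sums came largely from few genes. Clu of the Sertoli list had 75.3 and 130 RPM there. Cyp11a1 had 36.2 and 60.1 RPM, and Hsd3b1 34.2 and 36.7 RPM. Other Sertoli markers went the other way between the kinds of line without passing. Means in GSCLC and GSC lines were 12.4 and 3.25 RPM for Wt1, and 5.82 and 3.31 RPM for Inha. The part of these cells in the feedback gene values was not tested, and in such bulk samples fewer cells of a type and less RNA per cell cannot be told apart.

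Each condition was then set against the same 2 GSC lines, in a fit where all 3 groups shared an estimate of the spread. In condition 1, 0 of the 10 genes passed (0.772% of all genes tested did, 0.305% higher and 0.467% lower), and 5 had an unadjusted p under 0.05, as did 13.9% of all genes. In condition 2, 1 passed (1.4% of all genes tested, 0.424% higher and 0.976% lower), again with 5 at an unadjusted p under 0.05, as were 14.9% of all genes. The gene that passed was Il17rd, at -0.73 ± 0.15 with adjusted p = 0.0433 in condition 2 and -0.65 ± 0.15 with adjusted p = 0.0789 in condition 1. For condition 1 and condition 2 respectively, Spry4 stood at -1.22 ± 0.30 and -1.16 ± 0.30, and Dusp5 at -0.97 ± 0.27 and -0.92 ± 0.27. Phlda1 stood at -0.85 ± 0.26 and -1.01 ± 0.26, and Spry2 at 1.24 ± 0.30 and 0.91 ± 0.30. The 2 sets of values share their control lines. Compared directly, conditions 2 and 1 differed in 0 of the 10 genes by limma, with 0 at an unadjusted p under 0.05 and adjusted p of at least 0.933. Over all genes tested 0% passed, with 552 at an unadjusted p under 0.05. The differences between conditions ran from -0.33 ± 0.30 for Spry2 to 0.36 ± 0.26 for Dusp6.

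**Figure D3:**
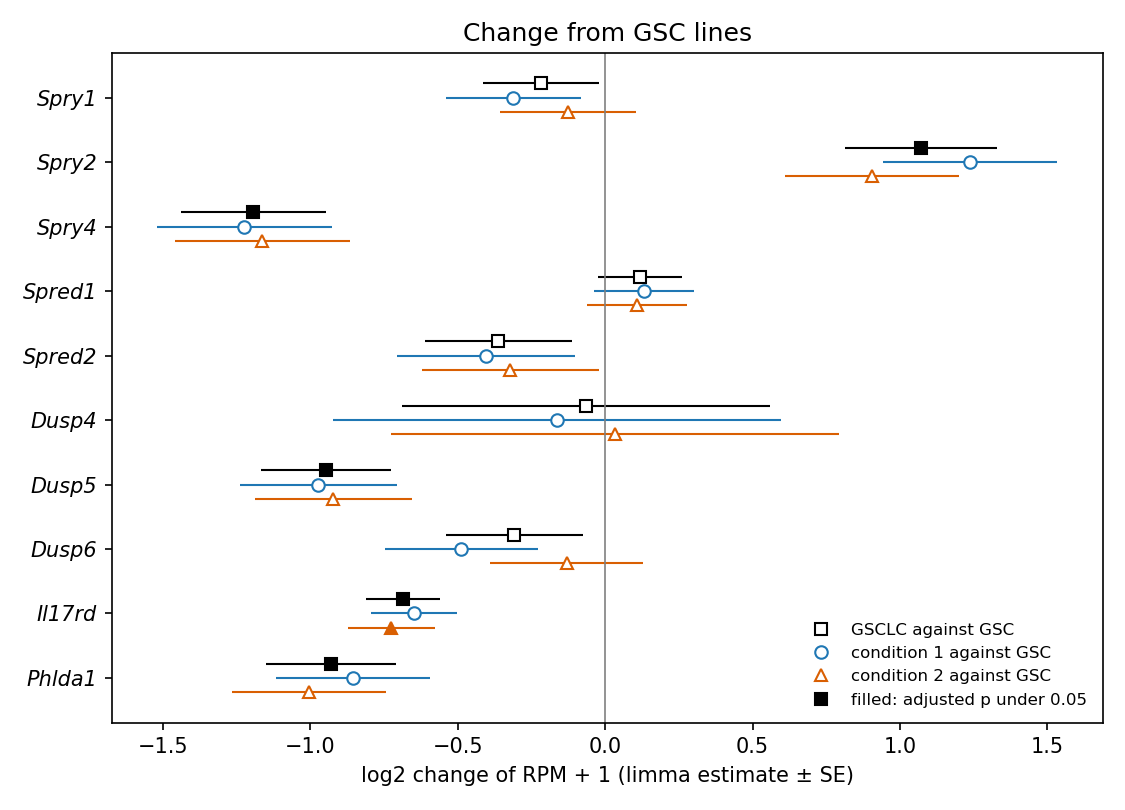
Log2 change of RPM + 1 from GSC lines (horizontal axis) for each feedback gene (vertical axis), as the limma estimate with its SE, for all 4 GSCLC lines, condition 1 and condition 2, with filled symbols at an adjusted p under 0.05. Spry2 lies near 1.07, Spry4 near -1.19, and the estimates of the 2 conditions fall within 1 SE of each other for Spry4, Dusp5, Il17rd and Phlda1.

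The 4 GSCLC lines were also compared with each other, against the spread of culture replicates within a line, which speaks for these lines only. By limma's F-test, 4 of the 10 genes differed among GSCLC lines, where 9.14% of all genes tested did. These were Dusp4 (adjusted p = 3.78e-05), Spry2 (adjusted p = 0.0389), Dusp6 (adjusted p = 0.0409) and Spry4 (adjusted p = 0.0492). Dusp4 stood apart in size: its GSCLC line means covered 2.90 on the log2 scale, against 1.06 for Dusp6, 1.05 for Spry2 and 0.83 for Spry4. By p, Dusp4 ranked 25 among the 11788 genes tested. Its 6 lines, from low to high, were GSCLC_2, GSCLC_4, GSC_2, GSC_1, GSCLC_1 and GSCLC_3, and no neighbours in that order overlapped in their replicates. The low and the high lines did not follow the conditions, since each condition held 1 line below and 1 line above the GSC lines.

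The order of lines differed from gene to gene. For Dusp6 it was GSCLC_4, GSCLC_2, GSCLC_1, GSC_2, GSC_1 and GSCLC_3, with overlap between every pair of neighbours from GSCLC_1 upward. By line means, Dusp4 and Dusp6 thus shared GSCLC_3 as the highest line and GSCLC_2 and GSCLC_4 as the lowest. For Dusp6 the place of GSCLC_3 rests on replicate 1, at 335 RPM. Its replicate 2, at 153 RPM, lay within the range of GSCLC_2 and below every GSC library. For Spry4 the order was GSCLC_3, GSCLC_4, GSCLC_1, GSCLC_2, GSC_2 and GSC_1, and only GSCLC_3 and GSCLC_4 overlapped as neighbours. For Spry2 it was GSC_2, GSC_1, GSCLC_3, GSCLC_1, GSCLC_2 and GSCLC_4, with overlap between the GSC lines and between GSCLC_3 and GSCLC_1. In the GSCLC lines, Dusp5 (adjusted p = 0.184), Phlda1 (0.212) and Il17rd (0.883) did not differ by the F-test, with line means covering 0.74, 0.72 and 0.16 on the log2 scale.

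Dusp4 kept its call among GSCLC lines in 12 of 12 fits with 1 library left out. Dusp6 kept it in 6, failing without either replicate of GSCLC_1 or GSCLC_2 or replicate 1 of GSCLC_3 or GSCLC_4 (adjusted p of 0.0514 to 0.180). Spry2 kept it in 3 of 12, failing without either replicate of GSC_2, GSCLC_1, GSCLC_2 or GSCLC_3 or replicate 1 of GSCLC_4 (adjusted p of 0.0505 to 0.242). Spry4 kept it in 2 of 12, without GSCLC_3 replicate 1 and without GSCLC_4 replicate 1, and otherwise had adjusted p of 0.0565 to 0.130. The 2 GSC lines differed in 0 of the 10 genes by limma, with 0 at an unadjusted p under 0.05, where 0.0509% of all genes tested passed (0.0339% higher and 0.017% lower in GSC_2) and 794 had an unadjusted p under 0.05. Their differences, GSC_2 minus GSC_1, ran from -0.64 ± 0.42 for Spred2 to 0.23 ± 0.28 for Dusp5.

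**Figure D4:**
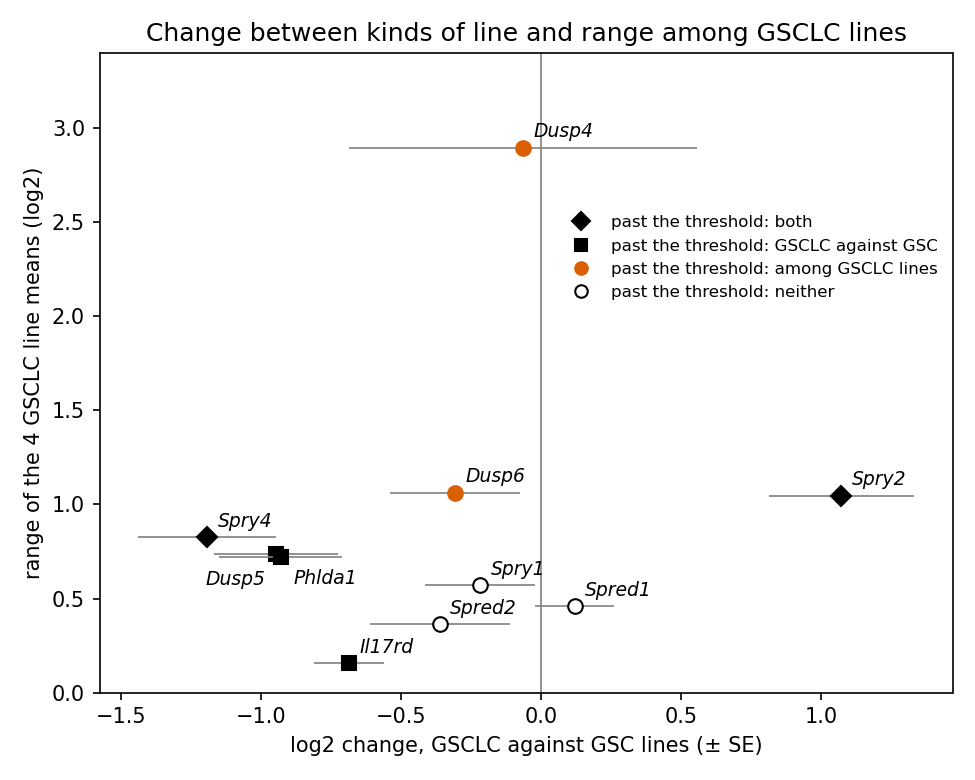
Log2 change between GSCLC and GSC lines with its SE (horizontal axis) against the range of the 4 GSCLC line means on the log2 scale (vertical axis) for each feedback gene, with symbols for the comparison in which the gene passed. Il17rd combines a fall of 0.69 with a range of 0.16, Dusp4 a change of -0.07 with a range of 2.90, and Spry2 and Spry4 passed in both comparisons.

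The shift of the feedback genes in a common direction between culture replicates was largest in GSCLC_3. There 9 of the 10 genes were higher in replicate 1, all but Spry2, and the median difference of replicate 1 minus replicate 2 was 0.58 on the log2 scale, against 0.04 over all genes tested. In GSCLC_4 the median difference was 0.45 with 6 of 10 genes higher in replicate 1, and in the other 4 lines it was between -0.22 and 0.10. The largest difference of a single gene was in GSCLC_4, 1.88 for Spred2, against 1.28 for Dusp4 in GSCLC_3. A median near 0 can hold differences in both directions, such as 0.61 for Dusp5 and -0.59 for Spry2 in GSC_1. Of 19 tested genes that ERK induces, most of them transcription factor genes, 14 were higher in replicate 1 of GSCLC_3 and 5 in replicate 2. This was counted in GSCLC_3 alone, without the share over all genes, so it does not set these genes apart. Among the former, Egr1 had 183 RPM in replicate 1 against 89.2 RPM in replicate 2. Among the latter, Egr3 had 4.81 against 7.55 RPM and Ets1 18.9 against 24.5 RPM. Whether ERK activity differed between the replicates was not tested.

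Other genes of the pathway were counted from lists chosen by function, with earlier results of these data known. Of 22 tested genes of further feedback inhibitors, 2 rose, 1 fell and 19 did not pass, with a median log2 change of 0.05. Over all genes tested 1.21% rose and 1.81% fell. Dusp16, a phosphatase of JNK and p38, rose from 8.89 ± 0.50 to 31.8 ± 9.77 RPM (log2 1.68 ± 0.26, adjusted p = 0.00769). Socs2, a suppressor of cytokine receptor signalling, rose from 3.89 ± 1.44 to 18.7 ± 5.01 RPM (2.01 ± 0.29, adjusted p = 0.00458). Dusp7, a close relative of Dusp6 that acts on ERK in the cytoplasm, fell from 38.0 ± 4.13 to 18.8 ± 3.56 RPM (-1.02 ± 0.22, adjusted p = 0.0296).

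Upstream of the feedback genes, 0 of 9 tested receptor genes and 0 of 22 tested genes of the cascade from adaptors to ERK passed by limma. Over all genes tested 3.02% passed, so in lists of this size a count of 0 does not set them apart. Their median log2 changes were -0.11 and -0.05. At an unadjusted p under 0.05 were 2 receptor and 4 cascade genes, and 16.9% of all genes. The receptor genes with the smallest p were Fgfr1, with a GSC mean of 63.9 ± 0.91 RPM and a GSCLC mean of 97.1 ± 21.5 RPM (adjusted p = 0.12), and Erbb3, at 27.6 ± 2.68 and 13.1 ± 14.3 RPM (adjusted p = 0.238). Erbb3 was 34.1 and 34.6 RPM in GSCLC_4 and 2.85 to 9.13 RPM in the other GSCLC lines. The cascade genes with the smallest p were the RAS relative Rras (-0.45 ± 0.15, adjusted p = 0.131) and the adaptor gene Grb2 (-0.40 ± 0.14, adjusted p = 0.157). Of 19 tested genes that ERK signalling induces, most of them transcription factor genes, 3 fell, 1 rose and 15 did not pass, with a median of -0.26. Over all genes tested 1.81% fell and 1.21% rose. Egr1, Egr2 and Bcl6b changed by -0.93 ± 0.13, -1.12 ± 0.15 and -0.98 ± 0.14, and Ets2, a nuclear target of ERK, rose from 20.3 ± 3.93 to 43.2 ± 5.15 RPM (1.06 ± 0.19, adjusted p = 0.0131). The adjusted p of the 3 falls were 0.00458, 0.00417 and 0.00451.

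The genes whose levels followed each called feedback gene most closely across the 6 lines were found by the root mean square distance of their line means on the log2 scale, each centred on its own mean, among 7387 other genes of at least 20 RPM on average. For Il17rd these were Ap1b1 at a distance of 0.04 and Foxo3 at 0.06, and for Phlda1 they were Mpzl2 at 0.06 and Riok3 at 0.07. Closest to Spry2 were Cacnb3 at 0.08 and Lamb1 at 0.10. Near Dusp5 was H1f0 at 0.15. Closest to Spry4 were Clcf1 at 0.13 and Pim1 at 0.24, the latter farther away than any other gene named here. Such closeness describes 6 points that share libraries and the split into 2 kinds of line.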

How the data were processed

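The libraries were made by SC3-seq, which amplifies cDNA and reads mRNA 3′ ends, with 1 ng of RNA as input and SOLiD sequencing, per the labels' protocols. The submitters' processing notes name mm10 (GRCm38) with Cufflinks 2.2.0, TopHat 1.4.1 and cutadapt 1.3 but no roles. Whether counting used strand is not given. The authors deposited 1 table of RPM, and each library sums to 999885 to 999962. Its low values were whole multiples of a step, within 0.1 of a step, for 99.8% to 99.9% of values, but some values were vanishing fractions, so no count test was run.

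The filter kept 11788 genes that reached 5 RPM in 2 or more libraries. Values were taken as log2(RPM + 1), averaged per line, and tested by limma (version 3.58.1, R 4.3.3), using a mean-variance trend, two-sided, adjusted by the Benjamini-Hochberg method over all genes tested. Lines were compared with each other in a fit of single libraries. The script was tested on simulated data. The main fits did not pair libraries by replicate number. Replicate differences correlated at -0.122 to 0.11 over 15 pairs of lines, which does not speak for single genes. In GSC_1, Cyp11a1 was 36.2 RPM in replicate 1 against 3.23 RPM in replicate 2, and in GSC_2 it was 60.1 against 2.30 RPM. Spry2, Spred1, Dusp6, Il17rd and Phlda1 were higher in replicate 2 of both GSC lines. Spry1, Spred2 and Dusp4 were higher in replicate 1 of both, and Spry4 and Dusp5 differed in direction. Alternatives were other pseudocounts, filters and scalings, no trend, random effects, a replicate block, and libraries or lines left out. The 10 genes, the gene lists and the tests were chosen with earlier results of these data known, and the promoter motifs with the sequences in view. By a set rule all 10 genes were given values, with the called genes of each pathway list (at most 8, or the 2 of smallest p where none passed) and the 2 nearest profiles of each called gene. One of these profiles is not reported here. Positions are from GENCODE M21 (GRCm38).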

Additional observations from a re-analysis of the deposited data

Results flagged for a closer look

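The change from GSC lines differed among the 4 GSCLC lines, by a test of the difference itself (limma's F-test over lines, adjusted over all genes), for 4 genes. GSCLC line means covered 2.90 on the log2 scale for Dusp4 (adjusted p = 3.78e-05), 1.06 for Dusp6 (0.0409), 1.05 for Spry2 (0.0389) and 0.83 for Spry4 (0.0492). Dusp4 was above both GSC lines in GSCLC_1 and GSCLC_3 and below both in GSCLC_2 and GSCLC_4. No library or line was far from the rest by Dixon's test in 30 groups of 4 or 8 values, at a nominal rate of 1 flag in 20. The libraries include culture pairs of the same line, and the line groups reuse their values. That rate therefore need not hold, and the absence of flags says little.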

How the results depend on the processing

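Of 980 alternative values for 35 results on single genes, 824 kept their direction and side of the threshold, 123 fell short of it, 21 newly passed and 12 turned direction. Only results that had passed could fall short. Between the kinds of line, Spry2 did so in 19 of 30 alternatives, Dusp5 in 18, Phlda1 in 14, Spry4 in 6 and Il17rd in 4. Il17rd in condition 2 did so in 18 of 29. Among GSCLC lines, Spry4 fell short in 20 of 26, Spry2 in 15, Dusp6 in 9 and Dusp4 in 0. None of the 12 values that turned direction belonged to a result that had passed the threshold. For Dusp4 between the kinds of line they were 0.014 with a pseudocount of 5, 0.095 without GSCLC_3 replicate 2, 0.017 without GSCLC_4 replicate 2, 0.089, 0.38 and 0.23 without the lines GSC_1, GSCLC_2 and GSCLC_4 (range over lines left out -0.58 to 0.38), and 0.16 with replicate 1 libraries alone. Spred1 turned to -0.023 with replicate 2 libraries alone. Without the line GSCLC_4, Spry2 and Dusp6 turned to 0.11 and -0.063 between conditions, against -0.77 and 0.78 without GSCLC_1. Dusp5 turned between GSC lines without replicate 2 of either, to as low as -0.077, against 0.53 without replicate 1 of GSC_1.

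In the counts that follow, the share of all genes that passed stands in brackets. The count of 5 feedback genes between the kinds of line (3.02%) became 1 with no filter on low values (0.708%), 0 with no mean-variance trend (2.05%), 2 in a fit of 3 groups (2.6%), and 0 and 3 with replicate 1 and replicate 2 libraries alone (1.01% and 1.58%), both added after seeing the data. It was 2 to 5 with 1 library left out (1.7% to 3.43%) and 0 to 5 with 1 line left out (0.112% to 4.56%). The count of 0 for condition 1 against GSC (0.772%) was 0 to 1 with a library left out (0.265% to 1.24%) and 0 to 3 with a line left out (0.0344% to 2.68%). For condition 2 the count of 1 (1.4%) was 0 to 1 (0.487% to 1.68%) and 0 to 2 (0.103% to 2.37%). It became 0 with no filter (0.0748%), quantile normalisation (1.09%), median ratio scaling (1.15%), no trend (0.501%) and replicate 1 libraries alone (0.511%), and 2 with replicate 2 libraries alone (1.08%). The count of 4 among GSCLC lines (9.14%) became 1 with no filter (2.28%), 2 with quantile normalisation (7.99%), 1 with no trend (3.91%), 1 to 3 with a library left out (6.05% to 9.89%) and 2 to 3 with a line left out (3.07% to 10.1%). The counts of 0 between conditions and between GSC lines stayed at 0 in all their alternatives. Some of these alternatives also had fewer samples or more genes tested. Why the counts changed was not tested.

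With single libraries and the line as a random effect, 3 genes passed in condition 1 (3.67%) and 3 in condition 2 (3.98%) against GSC. With the replicate block added these counts were 3 (3.14%) and 3 (3.55%), and those between the kinds of line and among GSCLC lines were 5 (5.02%) and 4 (9.59%). Quantile normalisation shifted library medians by -0.096 to 0.11 on the log2 scale. A test on recovered whole reads was not run, since not all values gave whole reads. A floor of 3 reads, 0.646 to 0.990 RPM, lay below every value of the 10 genes.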
